A study of Mus musculus with 31 samples.

Results

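The comparison set the difference between tumor-bearing and tumor-free mice in regulatory T cells (Tregs) of the blood against the same difference in Tregs of the lymph node. Of the 31 libraries of the series, 12 entered: 3 of KEP blood, 3 of WT blood, 3 of KEP lymph node and 3 of WT lymph node. KEP mice carried K14cre;Cdh1F/F;Trp53F/F, in which a keratin 14 promoter drives the Cre recombinase in epithelium and so deletes the floxed genes of E-cadherin and p53 there, and they bore spontaneous mammary tumors of 225 mm2. WT mice were littermates of genotype wt;Cdh1F/F;Trp53F/F, with the same floxed alleles and no Cre, and without tumors. All mice were on the FVB/N background. The KEP nodes drained the tumor, and the labels call the WT nodes only lymph nodes. A KEP library held the cells of 1 mouse, whereas WT libraries were pools of 3 mice, so the spread between WT libraries is a spread between pools. The cells were sorted as live CD45+ CD3+ CD4+ CD8- CD25+, with no gate on FOXP3, and the blood had its red cells lysed.

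Tregs restrain other T cells and other immune cells, and depend on the transcription factor FOXP3 and on interleukin 2, which they bind through CD25, the product of Il2ra. Naive-like Tregs recirculate through lymph nodes by way of the receptor CCR7 and the selectin CD62L. Activated Tregs lose part of that programme, gain receptors such as PD-1, TIM-3 and KLRG1, and enter tissues by other chemokine receptors.

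The quantity reported for each gene is a difference of differences on the log2 scale: KEP minus WT in blood, minus KEP minus WT in the lymph node. A positive value means that KEP exceeded WT by more in blood than in the lymph node, and a negative value the opposite. Every title date had 1 blood and 1 lymph node library, so the fit compared the blood minus lymph node difference within 3 KEP dates with that within 3 WT dates. No date held both genotypes: the date and the genotype cannot be told apart. The library titles end in short base sequences, and those of the 3 KEP blood libraries are the same as those of the 3 WT lymph node libraries. The labels do not say whether KEP blood was sequenced apart from the other groups. Such a batch could not be told apart from the difference of differences. The test was edgeR's quasi-likelihood F test with the date as a block, which left 4 residual degrees of freedom, with Benjamini-Hochberg adjustment over the 12134 genes tested and an adjusted p under 0.05 as the call. Unless a tissue is named, adjusted p-values are those of the difference. KEP against WT within a tissue was taken from a fit of the 4 group means. Levels are given as CPM, counts scaled to the size of the library; SD is the standard deviation of levels and SE the standard error of a log2 difference.

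Total counts per library ran between 9476533 and 11609950 in KEP blood, 8838218 and 10024307 in WT blood, 11207373 and 14044495 in KEP lymph node, and 8446510 and 10528692 in WT lymph node. The number of sorted cells differed with the tissue and the genotype: 17000 to 70000 in KEP blood, 9000 to 30000 in WT blood, 70000 in each KEP lymph node library and 62000 to 70000 in the WT lymph node libraries. The summed level of 10 pan-T genes was 5441 to 6128 CPM over all 12 libraries. Summed red cell markers reached 2051 to 4610 CPM in KEP blood and 2058 to 8395 CPM in WT blood, and at most 6.74 CPM in the lymph node libraries. Platelet markers summed to 253 to 401 CPM in KEP blood and 114 to 280 CPM in WT blood, and to at most 2.5 CPM in the lymph node libraries. Markers of CD8 T and NK cells summed to 58.6, 205 and 76.8 CPM in KEP blood, against 289, 125 and 462 CPM in WT blood, with Cd8a at no more than 0.28 CPM in any blood library. B cell markers, which include genes that Tregs also express, summed to 855 to 1036 CPM in KEP blood and 639 to 788 CPM in WT blood. Macrophage and monocyte markers summed to 1316 to 1553 CPM in KEP blood, 741 to 849 CPM in WT blood, 652 to 688 CPM in KEP lymph node and 507 to 549 CPM in WT lymph node. Most of that gap in blood was Ccr2, which T cells also express, with 1190, 958 and 1050 CPM in KEP and 466, 337 and 487 CPM in WT libraries. Of the 8 members tested, 3 were called higher and 3 lower in KEP blood. Itgam had 28.5, 24.3 and 30.9 CPM in KEP blood and 9.27, 4.98 and 14.8 CPM in WT blood. Lyz2 had 47.6, 23.2 and 32.9 CPM in KEP blood and 27.6, 36.3 and 20.2 CPM in WT blood. Csf1r had 0.707 to 3.66 CPM in KEP blood and 3.45 to 8.8 CPM in WT blood, and Cd68 1.49 to 2.04 CPM and 3.02 to 4.56 CPM. Neutrophil markers stayed at 33.5 CPM or less in every library. The part of these cells in the results was not tested.

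The 2 tissues differed in how far KEP and WT Tregs stood apart. In blood, 2539 genes were called between KEP and WT (20.9% of those tested), of which 1329 (11%) were higher and 1210 (9.97%) lower in KEP. In the lymph node 92 genes were called (0.758%), 52 higher (0.429%) and 40 lower (0.33%) in KEP. All 57 genes called in both tissues went the same way, and 0 went opposite ways. These 2 comparisons share no library, but their libraries share title dates, and the labels do not say whether they share mice. In bulk samples, fewer cells of a type and less RNA per cell cannot be told apart.

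The difference of differences was called for 622 genes (5.13%), positive for 304 (2.51%) and negative for 318 (2.62%). At an unadjusted p under 0.05 there were 2513. Sizes were mostly below 2-fold: 31 positive and 65 negative genes reached it. Among the 304 positive genes the change was larger in blood for 274 and larger in the lymph node for 30, and the median KEP minus WT difference was 0.50 in blood and -0.05 in the lymph node. Among the 318 negative genes it was larger in blood for 271 and larger in the lymph node for 47, with medians of -0.58 in blood and 0.04 in the lymph node. Thus 249 of the positive and 244 of the negative genes were also called in blood in that direction, while 12 and 2 were called in the lymph node.

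The count depended on the fit and on single dates. Without the date block 101 genes were called (0.832%), of which 99 were among the 622, with the date as a random block in limma-voom 435 were, and with log2 sorted cell number added as a covariate 21 were. With all 31 libraries in the fit, mammary gland and tumor libraries included, 0 genes passed and 1126 had an unadjusted p under 0.05. Leaving out a date gave 314 genes without KEP replicate 1, 267 without KEP replicate 3, 305 without WT replicate 1 and 282 without WT replicate 2.

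**Figure D1:**
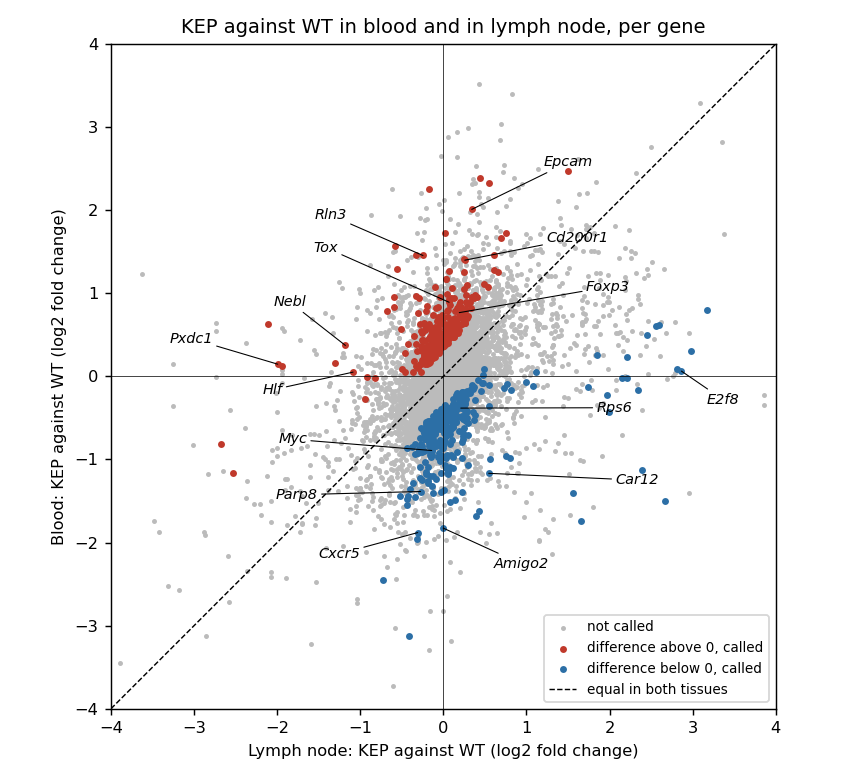
KEP against WT in blood (vertical axis) and in the lymph node (horizontal axis), both as log2 fold changes, for the tested genes. Each point is a gene; red points have a called difference above 0, blue points a called difference below 0, the dashed line marks equal changes, and 15 genes beyond 4 on either axis, none of them called, are not drawn. The called points form 2 bands beside the vertical axis, where the lymph node change is near 0 and the blood change is not, with 30 positive and 47 negative genes whose lymph node change is the larger.

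Spleen and lung libraries with the same title dates gave values for the genes called in the difference. These came from a fit of 24 libraries (blood, spleen, lung and lymph node), in which 4.26% of genes were called in spleen (3.3% higher and 0.959% lower in KEP) and 19.9% in lung (9.61% higher and 10.3% lower in KEP). Of the 304 positive genes, 176 (57.9%) were called higher in KEP lung and 73 (24%) in KEP spleen. They made up 14.3% of the 1229 genes higher in lung and 17.3% of the 421 higher in spleen that were also tested in the 12 libraries. Of the 318 negative genes, 179 (56.3%) were called lower in KEP lung and 36 (11.3%) in KEP spleen, or 14% of 1283 and 30% of 120 such genes. For the 30 positive genes with the larger change in the lymph node, 2 were called higher in lung and 1 in spleen.

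Among the genes with the strongest evidence for a positive difference (smallest p among called genes that reached 2-fold, averaged 5 CPM or more and had within-date differences that did not overlap), 7 of 10 had the larger change in blood. Such within-date differences did not overlap for 26.5% of all genes tested, and for all 622 called. Cd200r1, an inhibitory receptor for CD200, had 140, 70.5 and 96.4 CPM in KEP blood, against 42.3, 40.6 and 33.6 CPM in WT blood. In the lymph node it had 58.8, 44.4 and 54.6 CPM in KEP and 49.1, 45 and 37.9 CPM in WT libraries. The blood groups did not overlap, as for 34.2% of all genes tested, and the lymph node groups did, where 24.8% of genes tested did not; the difference was 1.10 ± 0.14 (SE; adjusted p = 0.00175). KEP minus WT was also 1.23 in spleen and 1.30 in lung, both called.

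Ccr6, the receptor for CCL20 found on effector Tregs, had 151, 163 and 184 CPM in KEP blood and 107, 85.7 and 101 CPM in WT blood. Its lymph node levels were 110, 84.2 and 131 CPM in KEP and 165, 128 and 107 CPM in WT libraries, so the lymph node groups overlapped and the blood groups did not. The difference was 1.06 ± 0.17 (SE; adjusted p = 0.0092). Rln3, which encodes the peptide hormone relaxin 3, had 17.7, 19.6 and 16.3 CPM in KEP blood against 6.79, 4.51 and 8.12 CPM in WT blood. Within the lymph node it stayed between 4.38 and 6.87 CPM in KEP and between 5.37 and 9.14 CPM in WT libraries, and its difference was 1.71 ± 0.29 (SE; adjusted p = 0.0065). Ptpn5, a tyrosine phosphatase, differed by 1.19 with 13.9 to 21.8 CPM in KEP blood and 6.29 to 8.84 CPM in WT blood. Igsf9b, an immunoglobulin superfamily adhesion protein, differed by 1.29, and Csgalnact1, an enzyme of chondroitin sulfate synthesis, by 1.46. Acvr2a, an activin receptor, differed by 1.08 but was not called in either tissue alone (adjusted p = 0.06 in blood and 0.24 in the lymph node).

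The other 3 of the 10 reached a positive difference through the lymph node. Nebl, which encodes the actin-binding protein nebulette, had 9.88, 7.61 and 11 CPM in KEP lymph node, against 28.2, 17.7 and 18.4 CPM in WT lymph node. In blood it had 62.2, 49.6 and 60.9 CPM in KEP and 52.9, 32.9 and 47.4 CPM in WT libraries. KEP lymph node libraries were all below the WT ones, the blood groups overlapped, and the difference was 1.55 ± 0.16 (SE; adjusted p = 0.00042). Hlf, a PAR-family leucine zipper transcription factor, had 28.7, 23.9 and 34.5 CPM in KEP lymph node and 76.9, 50.7 and 57.1 CPM in WT lymph node. Its blood levels of 62.1, 55.6 and 49.3 CPM in KEP and 69.3, 46 and 45.7 CPM in WT libraries overlapped, and the difference was 1.15 ± 0.16 (SE; adjusted p = 0.0033).

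Pxdc1, a gene for a PX domain protein, had 4.17, 4.02 and 6.52 CPM in KEP lymph node against 30.1, 15.1 and 13.1 CPM in WT lymph node. Its blood levels lay between 6.63 and 8.31 CPM in KEP and between 3.94 and 9.49 CPM in WT libraries. WT lymph node replicate 1 was the highest of the 12 libraries for both Pxdc1 and Hlf. The difference of Pxdc1 was 2.13 ± 0.30 (SE; adjusted p = 0.0026), and 10.5% of its exonic bases overlap a gene on the other strand. For these 3 genes KEP minus WT in spleen was 0.67, 0.44 and 0.07 in the order Nebl, Hlf, Pxdc1, and in lung 0.30, 0.20 and -0.36, with no call in either tissue. The lower level in KEP was thus called in the lymph node alone among the 4 tissues; the difference between the lymph node and spleen or lung was not tested.

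**Figure D2:**
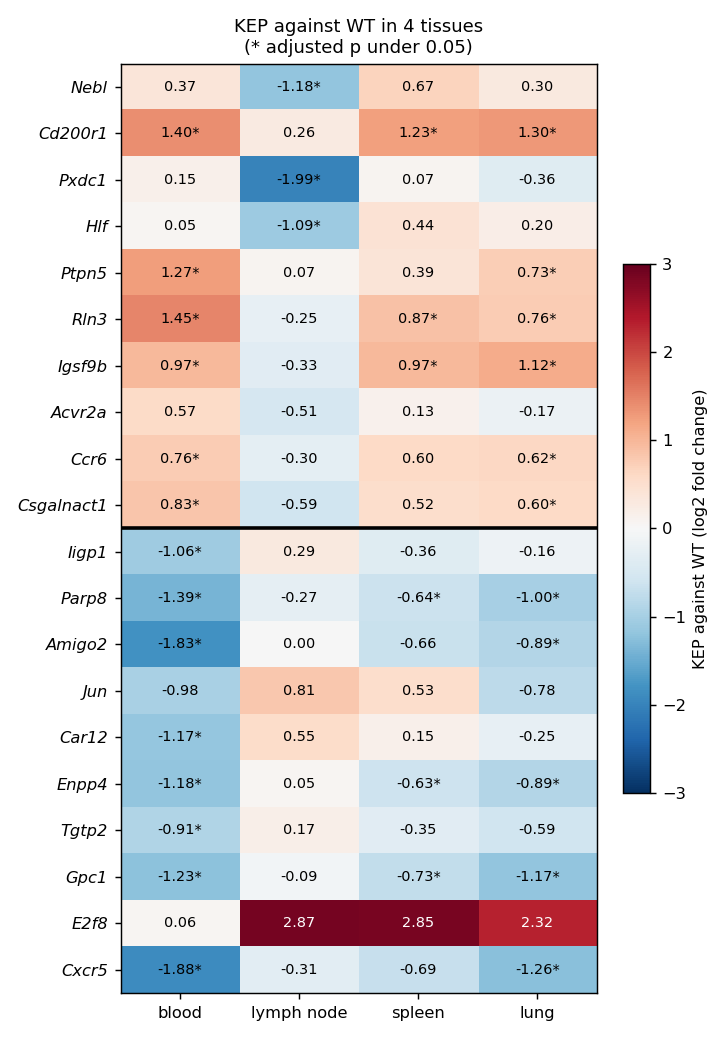
KEP against WT as log2 fold changes in blood, lymph node, spleen and lung for the 10 positive genes (above the line) and the 10 negative genes (below it) with the smallest p. Blood and lymph node values come from the 12 libraries, spleen and lung values from the fit of 24 libraries, and an asterisk marks an adjusted p under 0.05. Nebl, Pxdc1 and Hlf carry an asterisk in the lymph node alone, while Cd200r1, Rln3, Igsf9b, Parp8, Enpp4 and Gpc1 carry it in blood, spleen and lung.

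Among the 10 negative genes, 8 were called lower in KEP blood, and none was called in the lymph node. Parp8, a mono-ADP-ribosyltransferase gene, had 13.5, 20.7 and 18.5 CPM in KEP blood, against 42.6, 49.4 and 46.2 CPM in WT blood. In the lymph node it had 35.2, 37.7 and 36.9 CPM in KEP and 42.5, 41.3 and 48.9 CPM in WT libraries. KEP was below WT without overlap in both tissues, by more in blood, and the difference was -1.13 ± 0.16 (SE; adjusted p = 0.0026). Cxcr5, the receptor that guides follicular T cells to CXCL13, had 6.24, 10.8 and 10.2 CPM in KEP blood and 32.7, 37.5 and 30.9 CPM in WT blood. Lymph node levels of 22.2, 18.9 and 38.1 CPM in KEP and 31, 36.4 and 30.6 CPM in WT libraries overlapped, and the difference was -1.55 ± 0.24 (SE; adjusted p = 0.0064).

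Amigo2, an adhesion protein gene, had 1.72 to 3.17 CPM in KEP blood against 7.98 to 10.04 CPM in WT blood, and differed by -1.83. The interferon-inducible GTPase genes among the 10 were Iigp1 with -1.37 and Tgtp2 with -1.11. Iigp1 had 20.4, 23.9 and 35.7 CPM in KEP blood and 65, 62.8 and 40.6 CPM in WT blood, without overlap, and 74.5 to 96.3 CPM in KEP and 54.4 to 86.4 CPM in WT lymph node. Car12, a carbonic anhydrase, differed by -1.70, Enpp4, an ectophosphodiesterase, by -1.26, and Gpc1, the proteoglycan glypican 1, by -1.18. Of the exonic bases of Gpc1, 18.9% overlap a gene on the other strand.

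Jun and E2f8 were called in neither tissue alone. Jun, a subunit of AP-1, had 4.41, 5.13 and 1.86 CPM in KEP blood and 6.25, 10.1 and 6.09 CPM in WT blood. Within the lymph node it had 23.6, 22.8 and 8.5 CPM in KEP and 10.8, 11.6 and 9.05 CPM in WT libraries, and KEP replicate 3 was the lowest KEP library in both tissues. E2f8, a repressor of the late cell cycle, had 9.79, 1.68 and 2.47 CPM in KEP blood and 1.29, 8.91 and 3.04 CPM in WT blood. Lymph node levels of 25.5, 2.54 and 4.21 CPM in KEP against 0.556, 2.56 and 1.46 CPM in WT libraries overlapped, and KEP replicate 1 was the highest in both tissues among KEP libraries. The within-date differences of both genes were all below 0 in KEP; those of E2f8 were all above 0 and those of Jun all below 0 in WT.

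Of 13 Treg identity genes tested, 6 had a positive and 1 a negative difference, with a median of 0.31 against 0 over all genes tested. Foxp3 had 1800.4, 1639 and 1789 CPM in KEP blood, against 1118, 1028 and 926 CPM in WT blood. In the lymph node it had 1308, 1225 and 1279 CPM in KEP and 1048, 1268 and 1021 CPM in WT libraries, which overlapped. The difference was 0.57 ± 0.11 (SE; adjusted p = 0.0091); 18.6% of the exonic bases of Foxp3 overlap other genes on the same strand and 18.7% on the other.

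Il2ra, whose product CD25 was part of the sort gate, had 838, 655 and 848 CPM in KEP blood and 414, 432 and 372 CPM in WT blood. Its lymph node levels were 1194, 1014 and 1114 CPM in KEP and 838, 969 and 770 CPM in WT libraries. KEP lay above WT without overlap in both tissues, called in blood, and the difference was 0.57 ± 0.10 (SE; adjusted p = 0.0069). Ikzf2, which encodes the Ikaros family factor Helios, averaged 952 ± 176 CPM in KEP blood and 496 ± 100.3 CPM in WT blood, and 486 ± 20.8 CPM in KEP and 444 ± 54.5 CPM in WT lymph node (SD, n = 3 each). Its difference of 0.81 ± 0.13 (SE; adjusted p = 0.005) was the largest of the 6.

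The other positive members were Tnfrsf18, Capg and Nrp1, and the negative member was Lrrc32, which encodes the TGF-beta carrier GARP. Lrrc32 had 18.3, 26.4 and 21.3 CPM in KEP blood and 34.7, 65.6 and 27.7 CPM in WT blood, while its lymph node levels were 56 to 70.7 CPM in KEP and 53.4 to 70.3 CPM in WT libraries. These 4 were named after their values were seen. Ctla4, the inhibitory receptor that binds CD80 and CD86, had 785, 597 and 787 CPM in KEP blood and 658, 649 and 334 CPM in WT blood. Its lymph node levels were 643, 572 and 650 CPM in KEP and 502, 610 and 331 CPM in WT libraries. Its difference was 0.04 ± 0.11 (SE; adjusted p = 0.86). WT replicate 3 was the lowest in both tissues. Without KEP replicate 3, 2 identity genes had a positive call at a median of 0.14, and without WT replicate 2 or WT replicate 3, 3 had; edgeR called 0 of 13 without the date block and 0 with sorted cell number as a covariate (medians 0.32 and 0.20). The call of Lrrc32 was lost without any one of the KEP dates and without WT replicate 1.

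**Figure D3:**
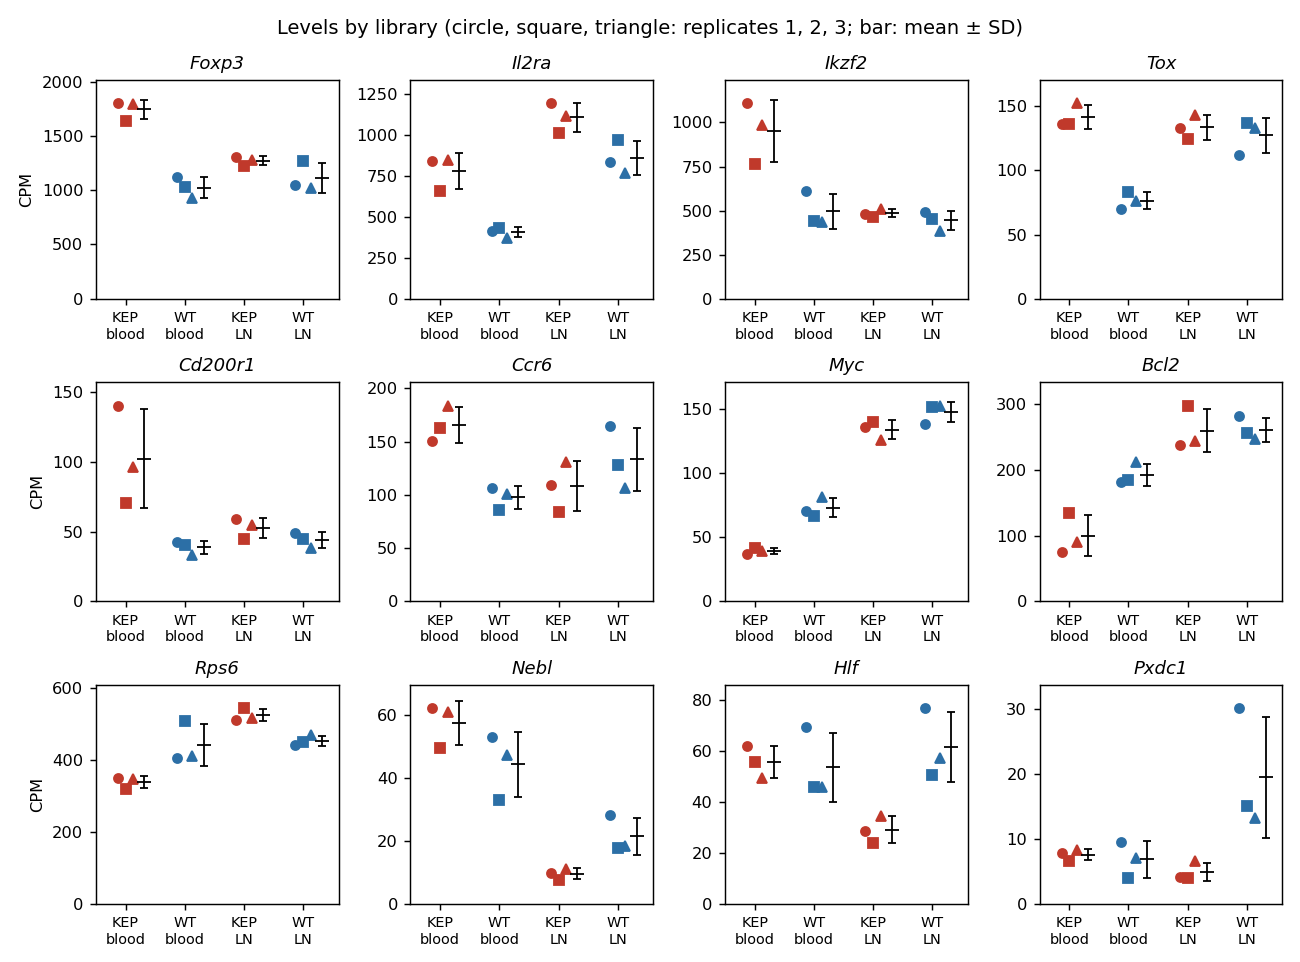
Levels in CPM of 12 named genes in the 3 libraries each of KEP blood, WT blood, KEP lymph node (LN) and WT lymph node. Symbols mark replicates 1 to 3 within a genotype (the same symbol in both tissues is the same date), red is KEP, blue is WT, and black bars give the mean ± SD. For Foxp3, Ikzf2, Tox, Myc and Bcl2 KEP and WT are apart in blood and overlap in the lymph node, for Nebl, Hlf and Pxdc1 they are apart in the lymph node and overlap in blood, and for Rps6 they are apart in both, in opposite directions. The Rps6 change was called in blood and not in the lymph node.

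Inhibitory receptors and suppressive mediators followed the same direction, with 4 of 16 positive and 0 negative (median 0.36). Tox, a nuclear factor of chronically stimulated T cells, had 136, 136 and 152 CPM in KEP blood, against 70.3, 83.1 and 75.8 CPM in WT blood. Within the lymph node it had 133, 124 and 143 CPM in KEP and 112, 137 and 133 CPM in WT libraries. KEP blood thus stood at the level of both lymph node groups and WT blood below it, with a difference of 0.82 ± 0.09 (SE; adjusted p = 0.0005). Pdcd1, which encodes PD-1, had 40.1, 25.9 and 31.1 CPM in KEP blood and 14.3, 20.4 and 19.5 CPM in WT blood. Its lymph node levels were 38.5 to 55.7 CPM in KEP and 40.5 to 56.4 CPM in WT libraries, and the difference was 0.91 ± 0.16 (SE; adjusted p = 0.0065).

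Itgb8, the integrin chain that helps release active TGF-beta, differed by 0.84 ± 0.18 (SE; adjusted p = 0.017). Havcr2, which encodes TIM-3 and was named after its values were seen, was called higher in both tissues. It had 29.8, 29 and 38.8 CPM in KEP blood against 5.93, 6.25 and 5.38 CPM in WT blood, and 41.4, 22.7 and 38.1 CPM in KEP lymph node against 10.1, 15.3 and 11 CPM in WT lymph node. KEP minus WT was 2.48 in blood and 1.50 in the lymph node, and the difference was 0.99 ± 0.23 (SE; adjusted p = 0.026). Without WT replicate 2 the list had 2 positive calls, and without the date block, with the date as a random block or with the covariate 1.

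Treg activation genes were higher in KEP blood for 14 of 18 members and in KEP lymph node for 1, yet the difference itself was positive for only 2 and negative for 0 (median 0.36). Prdm1, which encodes the effector regulator Blimp-1, had 180, 157 and 149 CPM in KEP blood and 83.2, 76.2 and 70.4 CPM in WT blood. Lymph node levels of 130, 95 and 114 CPM in KEP and 79.7, 90.3 and 64.4 CPM in WT libraries also did not overlap. The difference was 0.54 ± 0.12 (SE; adjusted p = 0.019). Maf, a transcription factor of interleukin 10-producing T cells, differed by 0.69 ± 0.16 (SE; adjusted p = 0.041). The Maf call was kept in 7 of 17 alternatives. It was lost with pan-T scaling and without KEP replicate 1, KEP replicate 2, WT replicate 1 or WT replicate 2. Without WT replicate 2, without the date block, with the covariate for sorted cells or with the date as a random block 0 of the list were called, at medians of 0.24, 0.35, 0.29 and 0.36. Without KEP replicate 1 there was 1, and without KEP replicate 2 there were 4.

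Genes of lymphoid recirculation and the resting state had differences on the other side of 0: 5 of 14 negative, 0 positive, with a median of -0.29. Bcl2, which encodes a survival protein, had 74.4, 135 and 89.8 CPM in KEP blood, against 182, 184 and 212 CPM in WT blood. Levels in lymph node were 239, 298 and 244 CPM in KEP and 282, 256 and 247 CPM in WT libraries. The blood groups did not overlap, the lymph node groups did, and the difference was -0.98 ± 0.14 (SE; adjusted p = 0.0049). Bach2, a repressor of effector differentiation, had 14.5, 31.9 and 19.8 CPM in KEP blood and 37.6, 58.5 and 62.5 CPM in WT blood, with a difference of -1.02 ± 0.18 (SE; adjusted p = 0.012). Its lymph node levels were 78.3 to 112 CPM in KEP and 99.4 to 119 CPM in WT libraries.

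Satb1, a chromatin organiser of T cells, differed by -0.67 ± 0.13 (SE; adjusted p = 0.012) although it was called in neither tissue alone. KEP blood replicate 2, with 135 CPM of Bcl2, 31.9 CPM of Bach2 and 231 CPM of Satb1, was the highest KEP blood library for all 3 genes, and KEP lymph node replicate 2 was the highest KEP lymph node library for them. Ccr7 and Foxp1 were the other 2 negative members and were named after their values were seen. Ccr7 had 93, 208 and 123 CPM in KEP blood against 320, 541 and 351 CPM in WT blood, while its lymph node levels were 330 to 408 CPM in KEP and 268 to 396 CPM in WT libraries. Leaving out KEP replicate 1, KEP replicate 3, WT replicate 1 or WT replicate 2 gave 3 negative calls in the list each time; there were 2 with the date as a random block, 1 with the covariate and 0 by edgeR without the date block.

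Homing and adhesion receptors were positive for 3 of 24 and negative for 1, Cxcr5. Ccr4, a receptor for CCL17 and CCL22 that leads T cells to skin and inflamed tissue, had 371, 391 and 452 CPM in KEP blood and 315, 239 and 254 CPM in WT blood. Levels in lymph node Tregs were 190, 135 and 188 CPM in KEP and 193, 171 and 171 CPM in WT libraries, and the difference was 0.66 ± 0.13 (SE; adjusted p = 0.01). Gcnt1, a glycosyltransferase that builds selectin ligands and was named after its values were seen, differed by 0.44. Of 13 lineage factors and cytokines, Rora was positive with 0.68 ± 0.13 (SE; adjusted p = 0.0098) and Tnf negative with -1.05 ± 0.19 (SE; adjusted p = 0.0075). Tnf had 4.63, 7.75 and 7.16 CPM in KEP blood and 16.2, 13.2 and 15.8 CPM in WT blood, and 51.7 to 63.2 CPM in KEP and 56.8 to 66.9 CPM in WT lymph node.

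The interleukin 2 and STAT5 response list had 2 of 15 positive and 0 negative (median 0.11). Cish, a feedback inhibitor induced by STAT5, had 380, 252 and 378 CPM in KEP blood, against 218, 176 and 165 CPM in WT blood. The lymph node values were 435, 398 and 487 CPM in KEP and 445, 454 and 347 CPM in WT libraries. The blood groups did not overlap and the lymph node groups did, with a difference of 0.75 ± 0.13 (SE; adjusted p = 0.0065); 11.5% of its exonic bases overlap genes on the other strand. Osm, the cytokine oncostatin M, differed by 0.49 ± 0.12 (SE; adjusted p = 0.032). The Osm call was kept in 6 of 17 alternatives. It was lost with DESeq2, with pan-T scaling and with any date but KEP replicate 2 left out. This list had 0 calls without the date block and with the covariate for sorted cells, and 1 positive call with DESeq2. Without WT replicate 2 it had 1 positive and 1 negative call. The start of Cish is shown because it holds the spaced palindrome TTCNNNGAA, the letters that STAT5 is known to bind, and the Cish promoter is a textbook STAT5 target. Capitals mark the matches in RefSeq's sequence (GRCm38.p6, chr9:107296559-107296678, plus strand, 100 bases before to 20 bases from the start).
Cish: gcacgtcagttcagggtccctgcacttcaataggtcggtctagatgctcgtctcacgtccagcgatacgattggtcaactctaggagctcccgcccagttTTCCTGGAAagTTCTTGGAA
Of 12 list genes with a promoter sequence, 2 held at least 1 match in the window of 250 bases before to 50 bases after the start, and Cish held 2. The 12 genes had 17 such windows, of which 2 (11.8%) held at least 1 match and 1 (5.9%) at least 2. Among all 32851 such windows, 8.3% held at least 1 match and 0.5% at least 2. The motif reads the same on both strands, and a match is a description of the letters.

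The early T cell receptor response list was negative for 2 of 16 and positive for 0, with a median of 0.09. Myc, a transcription factor for growth and ribosome production, had 37, 41.9 and 38.9 CPM in KEP blood, against 70.7, 66.7 and 81.3 CPM in WT blood. Lymph node Tregs had 136, 140 and 126 CPM in KEP and 138, 151 and 153 CPM in WT libraries. Both blood groups were below both lymph node groups, KEP blood lowest, and the difference was -0.75 ± 0.11 (SE; adjusted p = 0.0027). Nfkbid, an atypical inhibitor of NF-kB, differed by -0.63 ± 0.14 (SE; adjusted p = 0.017). In the NF-kB list 2 of 15 were negative, Relb with -0.58 and Ltb, which encodes lymphotoxin beta, with -0.39.

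Cytosolic ribosomal protein genes had the highest share of calls among the lists for T cell states. Of 20 tested, 14 were negative and 0 positive, all 20 lay below 0, and the median was -0.51. The median KEP minus WT difference was -0.37 in blood, where 11 were called lower, and 0.19 in the lymph node, where 0 were called. The summed level of the list was 12930, 12420 and 13100 CPM in KEP blood, against 15190, 18610 and 15110 CPM in WT blood. In the lymph node it was 18580, 20350 and 19360 CPM in KEP and 16410, 17320 and 17930 CPM in WT libraries. All KEP blood libraries were below all WT blood libraries, and all KEP lymph node libraries above all WT lymph node libraries.

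Rps6, a protein of the small subunit, had 349, 320.0 and 347 CPM in KEP blood and 405, 508 and 411 CPM in WT blood. The node libraries had 512, 544 and 516 CPM in KEP and 441, 449 and 469.6 CPM in WT libraries. KEP lay below WT in blood and above WT in the lymph node, without overlap in either, and the difference was -0.59 ± 0.11 (SE; adjusted p = 0.0086). The change was called in blood and not in the lymph node (adjusted p = 0.0066 and 0.25). Over the whole family found by symbol, a set chosen after values were seen, 43 of 72 genes tested were negative, 0 positive, and all 72 were below 0. In the lymph node alone 0 of the 72 were called. Many members have processed pseudogenes, between which reads can be split.

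The blood library with the fewest sorted cells in its genotype had the lowest ribosomal sum in KEP (replicate 2, 17000 cells) and the highest in WT (replicate 2, 9000 cells). With sorted cell number as a covariate the median was -0.50 and edgeR called 0 of 20. There were 6 calls without KEP replicate 3, 7 without WT replicate 1 and 6 without WT replicate 2, with medians of -0.54, -0.52 and -0.45. Without the date block 5 were called at a median of -0.52.

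Messenger RNAs of ribosomal proteins are known to start with a run of pyrimidines, the terminal oligopyrimidine tract, which couples their translation to mTOR. The starts of the 5 list genes in which such a tract was found are shown for that feature. The search asked for a C followed by at least 5 pyrimidines on the gene's strand. The whole match had to lie within the stretch from 5 bases before to 11 bases after the annotated start. Capitals mark the tract in RefSeq's sequences (GRCm38.p6), which run over 50 bases: Rpl18 chr7:45718041-45718090 and Rps2 chr17:24720033-24720082 and Rps24 chr14:24490648-24490697 on the plus strand, Rps18 chr17:33955646-33955695 and Rps6 chr4:86857348-86857397 on the minus strand.
Rpl18: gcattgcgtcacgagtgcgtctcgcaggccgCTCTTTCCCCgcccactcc
Rps18: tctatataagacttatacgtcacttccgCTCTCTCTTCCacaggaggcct
Rps2: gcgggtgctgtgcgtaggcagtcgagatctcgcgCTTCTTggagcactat
Rps24: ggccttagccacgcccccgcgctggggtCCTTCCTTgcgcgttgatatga
Rps6: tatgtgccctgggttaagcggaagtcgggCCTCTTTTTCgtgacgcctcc
Of 12 list genes with a sequence, these 5 held the tract. Those 12 genes had 14 windows, of which 5 (35.7%) held it, against 10.2% of all 32851 windows. Rps18 and Rps6 were called and Rpl18, Rps2 and Rps24 were not. Rps18 had 403, 285 and 384 CPM in KEP blood and 476, 564 and 501 CPM in WT blood, and 538, 603 and 575 CPM in KEP and 474, 430 and 429 CPM in WT lymph node.

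Ribosome biogenesis factors were negative for 7 of 20 and positive for 0 (median -0.36). Nop56, a core protein of box C/D small nucleolar particles, had 81.5, 86.1 and 85 CPM in KEP blood, against 147, 120 and 135 CPM in WT blood. Levels in lymph node were 147, 137 and 127 CPM in KEP and 133, 123 and 141 CPM in WT libraries. KEP blood was below the other 3 groups, with a difference of -0.72 ± 0.10 (SE; adjusted p = 0.0027); 8.0% of its exonic bases overlap other genes on the same strand, small nucleolar RNA genes among them. Rrp12, an export factor of pre-ribosomes, differed by -0.75 and Mybbp1a, a nucleolar protein, by -0.51. Leaving out KEP replicate 1, WT replicate 1 or WT replicate 2 gave 3 calls each time, and there were 2 without the date block and 1 with the covariate.

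Of the mitochondrial and cytosolic chaperones, 2 of 17 were negative, Hspe1 with -0.86 and Hspa9 with -0.41, both of which encode mitochondrial chaperones. Of the oxidative phosphorylation subunits, 2 of 19 were negative, Cox6c and Ndufb8, each with -0.49. That list had 0 calls without any one of the KEP dates or WT replicate 2, without the date block, and with the covariate for sorted cells. Their calls were kept in 8 (Cox6c) and 7 (Ndufb8) of 17 alternatives. Within each date, the median ribosomal protein gene had a blood minus lymph node difference of -0.57, -0.73 and -0.58 in the 3 KEP dates. In the 3 WT dates the same medians were -0.11, 0.04 and -0.28.

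**Figure D4:**
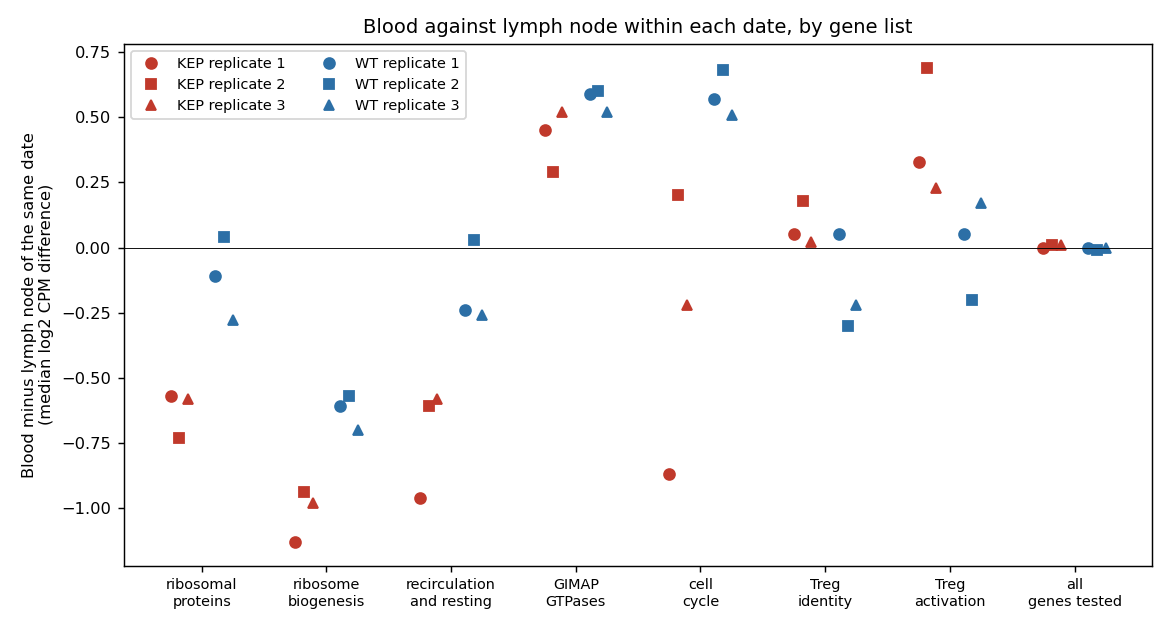
Median log2 CPM difference of blood minus lymph node within each date, for the genes of 7 lists and for all genes tested. Each symbol is a date: red symbols are the 3 KEP dates, blue symbols the 3 WT dates, and the line at 0 marks equal levels in blood and lymph node. For ribosomal proteins, ribosome biogenesis, and recirculation and resting genes the 3 KEP dates lie below the 3 WT dates, and for cell cycle KEP replicate 1 lies apart at -0.87.

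GIMAP GTPases, a cluster of genes for lymphocyte survival, were negative for 3 of 8 and positive for 0 (median -0.35). Gimap4 had 454, 564 and 638 CPM in KEP blood, against 947, 780.1 and 984 CPM in WT blood. The lymph node values were 453, 549 and 507 CPM in KEP and 493, 451 and 514 CPM in WT libraries. WT blood stood above the other 3 groups, and the difference was -0.76 ± 0.11 (SE; adjusted p = 0.0026). Gimap3 differed by -0.53 and Gimap9 by -0.50. The count stayed at 3 with each date left out in turn, fell to 1 with the covariate for sorted cells and to 0 without the date block. The GIMAP genes resemble each other in sequence, so reads can be split between them.

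Cell cycle genes were negative for 6 of 32 and positive for 0, and 31 of 32 lay at or below 0 (median -0.83). The median KEP minus WT difference was 0.58 in blood and 1.64 in the lymph node, but no member was called in blood and 1 was in the lymph node. The summed level was 1089, 818.9 and 737.5 CPM in KEP blood, against 624, 812 and 690.5 CPM in WT blood. Within the lymph node it was 2096, 695.5 and 924 CPM in KEP and 526, 689.6 and 614 CPM in WT libraries. KEP replicate 1 was the highest library in both tissues, and by far in the lymph node. Ccna2, which encodes cyclin A2, had 45.3, 7.61 and 10.1 CPM in KEP lymph node and 2.96, 5.11 and 2.82 CPM in WT lymph node, with a difference of -1.68 ± 0.32 (SE; adjusted p = 0.0087). Its blood levels were 22, 8.49 and 9.28 CPM in KEP and 7.12, 11.6 and 7.3 CPM in WT libraries. Without KEP replicate 1, 0 of 32 were called and the median was -0.38; without KEP replicate 2, 16 were called. Leaving out any of the other dates gave 1 to 3 calls, WT replicate 3 the fewest. There were 0 without the date block, with the date as a random block and with the covariate for sorted cells, at medians of -1.02, -0.84 and -0.31. Cdc6, a licensing factor of replication, differed by -1.88, and Nusap1, a spindle protein, by -2.12.

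**Figure D5:**
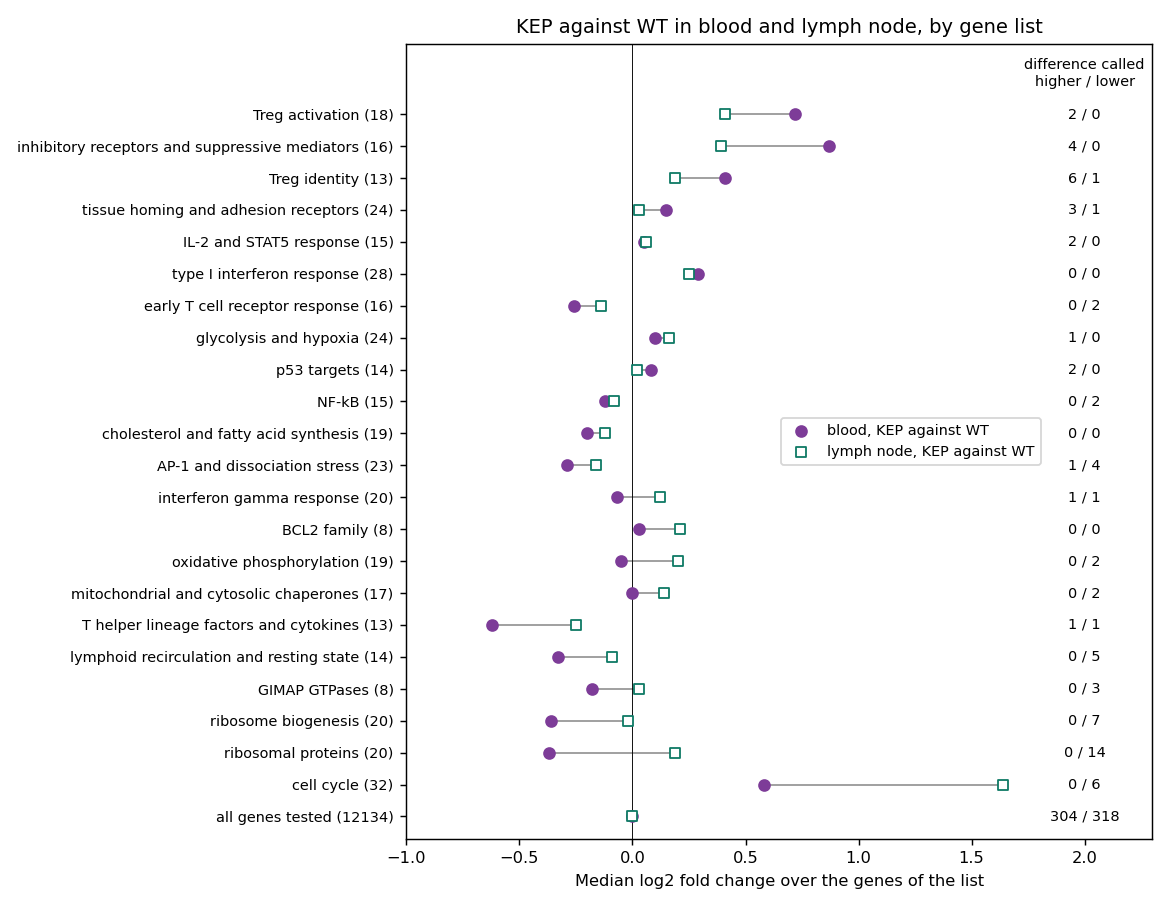
Median log2 fold change of KEP against WT in blood (filled circles) and in the lymph node (open squares) over the genes of each list for T cell states, with the number of genes tested in brackets. Numbers at the right give how many members had a called positive and negative difference, and the bottom row gives the 304 and 318 of all genes tested. Blood lies right of the lymph node for Treg identity, activation and inhibitory receptors, and left of it for ribosomal proteins, ribosome biogenesis and cell cycle.

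AP-1 and dissociation stress genes were negative for 4 of 23 and positive for 1, Zfp36l1, with a median of -0.09. Beside Jun, Fosb, also an AP-1 subunit, differed by -1.72 ± 0.39 (SE; adjusted p = 0.021). It had 7.86, 4.11 and 4.33 CPM in KEP blood and 13.5, 9.26 and 8.83 CPM in WT blood, and 2.49 to 3.27 CPM in KEP and 1.48 to 1.86 CPM in WT lymph node. KEP was below WT in blood and above WT in the lymph node, without overlap in either. The change was called in blood and not in the lymph node (adjusted p = 0.024 and 0.27). Dnajb1, a heat shock cochaperone, differed by -0.38. The Dnajb1 call was kept in 6 of 17 alternatives, and lost with DESeq2 and with any date but WT replicate 3 left out. The labels state no digestion for blood or lymph node. Leaving out KEP replicate 3 or WT replicate 1 gave 1 negative call in the list, leaving out KEP replicate 1, KEP replicate 2 or WT replicate 2 gave 2; there was 1 with the date as a random block, 0 without the block and 0 with the covariate.

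The type I interferon response list had 0 of 28 called by edgeR, DESeq2 or limma-voom and 3 at an unadjusted p under 0.05, with Trim30a, an antiviral TRIM protein gene, at the smallest p (0.32 ± 0.09, SE; adjusted p = 0.067). In the interferon gamma list 1 of 20 was positive, Gbp7, with 0.43, and 1 negative, Iigp1. Without WT replicate 2 the type I list had 1 negative call and the interferon gamma list 4, with 0 positive in either. Gbp7, a guanylate-binding protein gene, had 634, 489 and 577 CPM in KEP blood and 387, 304 and 335 CPM in WT blood, and 335 to 376 CPM in KEP and 256 to 308 CPM in WT lymph node. Of its exonic bases, 11.3% overlap a gene on the same strand. The call of Gbp7 was kept in 6 of 17 alternatives, and lost with pan-T scaling and with any date but KEP replicate 2 left out. That of Iigp1 was kept in 15 of 17.

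Of 24 glycolysis and hypoxia genes 1 was positive, Hif1a, which encodes the oxygen-regulated factor HIF-1 alpha. It had 309, 287 and 306 CPM in KEP blood, against 179.8, 175 and 161 CPM in WT blood. Lymph node Tregs had 217.5, 179 and 196 CPM in KEP and 164, 195 and 164 CPM in WT libraries. KEP blood stood above the other 3 groups, with a difference of 0.63 ± 0.10 (SE; adjusted p = 0.0049). Cholesterol and fatty acid synthesis had 0 of 19 called by edgeR, 1 by DESeq2 and 2 at an unadjusted p under 0.05, Scd1 with the smallest p (-2.46 ± 0.88, SE; adjusted p = 0.14). The BCL2 family list did not hold Bcl2 itself, which was counted with the resting genes and was called at -0.98. Of the 8 other family members tested 0 were called by either tool and 2 had an unadjusted p under 0.05, Bmf with the smallest (1.20 ± 0.45, SE; adjusted p = 0.14).

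Trp53 and Cdh1 are deleted in epithelium and not in T cells, so their levels here do not check the genotype labels. Trp53 had 117, 138 and 126 CPM in KEP blood and 181, 176 and 173 CPM in WT blood, which was called lower in KEP blood (-0.48; adjusted p = 0.0011). The node libraries had 215, 204 and 208 CPM in KEP and 215, 223 and 251 CPM in WT libraries, and the difference of -0.34 ± 0.11 (SE; adjusted p = 0.078) was not called. Cdh1 had 1.03 to 1.59 CPM in KEP blood and 1.74 to 4.85 CPM in WT blood, and 1.14 to 3.52 CPM in KEP and 2.63 to 8.8 CPM in WT lymph node. Of 14 p53 targets 2 were positive, Trp53inp1 with 0.47 and Zmat3 with 0.53. The list had 0 calls without KEP replicate 3 or WT replicate 2, without the date block, and with the covariate for sorted cells.

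The T cell genes Cd4 and Cd3e had differences of 0.15 ± 0.10 and 0.09 ± 0.10 (SE; adjusted p = 0.42 and 0.66). Of the 10 pan-T genes, Cd3d was negative with -0.43 ± 0.10 (SE; adjusted p = 0.03), with 313, 295 and 340.2 CPM in KEP blood and 354, 373 and 351 CPM in WT blood. Levels in lymph node Tregs were 328, 376 and 360.3 CPM in KEP and 307, 285 and 309 CPM in WT libraries, and KEP lay below WT in blood and above it in the lymph node. Neither change was called within its tissue (adjusted p = 0.10 in blood and 0.15 in the lymph node). Scaling to these 10 genes in place of TMM moved the split of calls to 148 positive and 352 negative (29.6% positive against 48.9%), and in blood to 814 higher and 1200 lower in KEP.

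Marker genes of other cells gave 3 calls. Itga2b, the platelet integrin chain, differed by 1.48 ± 0.35 (SE; adjusted p = 0.028), with 125, 86.9 and 100.3 CPM in KEP blood and 73.1, 68.1 and 39.5 CPM in WT blood, and 0.858 to 2.5 CPM over the lymph node libraries. Its call was kept in 5 of 17 alternatives and lost with DESeq2, with limma-voom and with any date but KEP replicate 2 left out, and the difference lay between 0.98 and 2.02. Epcam, an epithelial adhesion protein gene, differed by 1.63 ± 0.32 (SE; adjusted p = 0.016). It had 39.4, 18.5 and 22.4 CPM in KEP blood and 7.87, 3.94 and 7.91 CPM in WT blood, and 14.7 to 15.7 CPM in KEP and 10.7 to 13.2 CPM in WT lymph node. Of the 3 epithelial and milk genes tested, 2 were called higher in KEP blood and 0 lower. Krt18 had 4.2, 5.79 and 5.92 CPM in KEP blood and 2.91, 0.231 and 1.42 CPM in WT blood. Cdh1 went the other way, with 1.18, 1.03 and 1.59 CPM in KEP blood and 4.85, 1.74 and 4.36 CPM in WT blood. Krt5 and Krt14 were at no more than 0.175 CPM in any library. Ms4a6c, of the macrophage list, differed by -0.53 and is uncertain, because 53.1% of its exonic bases overlap a gene on the other strand. In the fit of 12 libraries with the date block, edgeR called 0 members of the neutrophil, dendritic cell, B cell, plasma cell, CD8 T and NK cell, mast cell and basophil, red cell, and stroma and endothelium lists. At an unadjusted p under 0.05 were 6 of 9 B cell, 2 of 7 CD8 T and NK cell, 1 of 5 dendritic cell and 1 of 5 plasma cell genes tested, and 0 of the other lists. Some alternatives did call members. Of the B cell genes 3 of 9 were negative without KEP replicate 1 and 2 of 9 with DESeq2. Without KEP replicate 1, 2 of 6 dendritic cell genes were negative, and 1 of 7 CD8 T and NK cell genes was with DESeq2. With 24 libraries 1 of 6 plasma cell genes was positive. Members with the smallest p in their lists were Csf3r (adjusted p = 0.59), H2-Ab1 (0.10), Sdc1 (0.081), Klrd1 (0.12), Hdc (0.47), Hba-a2 (0.28) and Col1a1 (0.65).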

How the data were processed

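Polyadenylated RNA of sorted cells was sequenced, and the authors deposited raw counts of reads per gene for 31 libraries. The submitters' processing notes name TopHat2 2.1.0, HTSeq and GRCm38; the strand setting of the counting and the annotation release are not given in the sources used here. From the deposited counts, edgeR's filterByExpr (minimum count 10) kept 12134 of 24594 genes, which were scaled by TMM. edgeR 4.0.16 (R 4.3.3) fitted quasi-likelihood models with Benjamini-Hochberg adjustment; the alternatives used limma 3.58.1 and DESeq2 1.42.0. The scripts were tested on simulated data. The comparison, its members and the gene lists were chosen with earlier results of these data known. Named genes were the 10 positive and 10 negative genes of smallest p (at least 2-fold, mean at least 5 CPM, within-date differences not overlapping), up to 3 called members of each list by p, and the set Cd4, Trp53, Cd3e, Ctla4, Foxp3, Ikzf2 and Il2ra. A few genes that this rule names are not reported here. Blood and lymph node libraries were paired by the date in their titles, since the labels do not say which share animals. The correlation of same-date deviations from the group means was 0.323, 0.236 and 0.238 in KEP and 0.161, 0.054 and 0.073 in WT, where pairs of unlike dates reached 0.05. The p-values measure the spread between these libraries, which are single mice in KEP and pools in WT. No 2 replicates of a group agreed within counting noise. Exon overlaps were taken from GENCODE M21, where 24286 gene IDs matched. The alternatives were other scalings, filters, tools and sets of libraries, a covariate for sorted cells, no date block, and each date left out.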

Additional observations from a re-analysis of the deposited data

Results flagged for a closer look

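The results listed here were marked because the KEP minus WT difference in blood and that in the lymph node differed by the test of the difference itself. It was called for 622 genes. The values are differences of log2 fold changes, blood minus lymph node. Above 0 lay Nebl 1.55, Cd200r1 1.10, Pxdc1 2.13, Hlf 1.15, Ptpn5 1.19, Rln3 1.71, Igsf9b 1.29, Acvr2a 1.08, Ccr6 1.06 and Csgalnact1 1.46. Also above 0 were Ikzf2 0.81, Il2ra 0.57, Foxp3 0.57, Prdm1 0.54, Maf 0.69, Tox 0.82, Pdcd1 0.91, Itgb8 0.84, Ccr4 0.66 and Rora 0.68. The rest above 0 were Cish 0.75, Osm 0.49, Gbp7 0.43, Hif1a 0.63, Trp53inp1 0.47, Zmat3 0.53, Itga2b 1.48 and Epcam 1.63. Below 0 lay Iigp1 -1.37, Parp8 -1.13, Amigo2 -1.83, Jun -1.74, Car12 -1.70, Enpp4 -1.26, Tgtp2 -1.11, Gpc1 -1.18, E2f8 -2.45 and Cxcr5 -1.55. Also below 0 were Bcl2 -0.98, Bach2 -1.02, Satb1 -0.67, Tnf -1.05, Myc -0.75, Nfkbid -0.63, Fosb -1.72, Dnajb1 -0.38, Ccna2 -1.68 and Cdc6 -1.88. Further values below 0 were those of Nusap1 -2.12, Cox6c -0.49, Ndufb8 -0.49, Rps6 -0.59, Nop56 -0.72, Rrp12 -0.75, Mybbp1a -0.51 and Hspe1 -0.86. Still below 0 came Hspa9 -0.41, Relb -0.58, Ltb -0.39, Gimap4 -0.76, Gimap3 -0.53, Gimap9 -0.50, Cd3d -0.43 and Ms4a6c -0.53.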

How the results depend on the processing

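The difference between tissues rested on the date as a block: with no replicate block, 101 genes were called in place of 622, 99 of them shared. The count was 1178 with no filter on low counts, 0 with all 31 libraries (1126 at an unadjusted p under 0.05; edgeR) and 21 with sorted cell number as a covariate, and 267 to 611 with a date left out. It was 627 with RLE factors, 500 with pan-T scaling, 640 at a minimum count of 50, 743 with 24 libraries, 468 with DESeq2, 640 with limma-voom and 435 with the date as a random block. KEP against WT in blood gave 2539 genes, 657 with all 31 libraries, 1008 with the covariate and 1242 to 2195 with a date left out (1242 without KEP replicate 3, 1666 without WT replicate 3). In the lymph node it gave 92 genes, 32 with pan-T scaling, 331 with no filter, 143 with 24 libraries, 2 with all 31 libraries, 407 with DESeq2 and 12 to 146 with a date left out. Of the 66 named genes called, 16 kept their call without the block, 11 with the covariate, 0 with all 31 libraries, and 49 to 61 with a date left out. The Ctla4 difference of tumor effects, called in no setting, changed sign with pan-T scaling (-0.009356) and with the covariate (-0.09727), and lay between -0.05005 and 0.1503 with a date left out, below 0 without KEP replicate 1, KEP replicate 3, WT replicate 2 or WT replicate 3. The cause of these changes was not tested. E2f8 and Amigo2 averaged only 4.6 and 2.5 CPM in KEP blood, and the part of depth in their values was not tested. The call of E2f8 was kept in 12 of 17 alternatives and that of Amigo2 in 16 of 17.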
